A study of Mus musculus with 12 samples.

Results

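Carbonic anhydrases and bicarbonate transporters of the SLC4 family were followed in NIH3T3 cells, an immortalised line of mouse embryonic fibroblasts, in normoxia and after 16 h below 0.2% oxygen. The members were 9 genes, taken by their symbols from the 54446 genes of the count table: the carbonic anhydrases Car2, Car5b, Car6, Car9, Car12 and Car13, and the transporters Slc4a2, Slc4a4 and Slc4a7. Of these, 7 had enough reads for a test, and Car2 and Car12 did not.

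Carbonic anhydrases interconvert carbon dioxide and water with bicarbonate and a proton, and the family members differ mainly in where they act. Car2 and Car13 are cytosolic, Car5b is mitochondrial, Car6 is the secreted form, best known from saliva, and Car9 and Car12 are anchored in the plasma membrane with the catalytic domain outside the cell. Bicarbonate made or used by these enzymes crosses the membrane through SLC4 proteins: Slc4a2 encodes the chloride-bicarbonate exchanger AE2, Slc4a4 the electrogenic sodium-bicarbonate cotransporter NBCe1, and Slc4a7 the electroneutral cotransporter NBCn1. Cells short of oxygen rely on glycolysis and export acid, and CA9 is among the classical targets of the hypoxia-inducible factors.

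The wild-type group was unmodified NIH3T3 cells. The ΔN-VEGF group was a line made from them with Cas9, guide RNAs and donor cassettes, in which the coding region of N-VEGF, the amino-terminal extension of the longest VEGF-A product, had been removed from Vegfa. The authors also describe selection with puromycin and hygromycin, removal of the cassettes with a retroviral VCre vector, and sorting of non-fluorescent cells. The wild-type cells are not said to have gone through these steps. Cells of both lines were kept in normoxia or in hypoxia, with 3 samples in each of the 4 groups. Edited cells were grown from single clones, and which clone was sequenced is not given in the sources used here. Effects of the deletion, of the editing steps and of differences between clones therefore cannot be told apart. The labels do not say that the samples of a group were separate cultures, so p-values measure the spread between these samples.

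Counts on genes ranged from 30519052 to 43056690 per sample, with a median of 39309933. Normoxia samples numbered 2 stood apart in both lines. The log2 CPM (level relative to the TMM-scaled library size) of the wild-type sample correlated across genes at no more than 0.957 with its own group, where the other 2 samples of that group reached 0.996, and at 0.984 with the ΔN-VEGF normoxia sample numbered 2. The latter reached 0.986 with its own group. Results are therefore given also without both of these samples, a setting chosen after the data had been seen. The 8 fibroblast markers summed to between 17170 and 23750 CPM in the normoxia samples, 27720 and 30060 in wild-type hypoxia, and 41880 and 44100 in ΔN-VEGF hypoxia. Fn1, Vim and the collagens made up most of these sums, while Pdgfrb was lower in hypoxia (25.8 to 31.1 CPM against 59.3 to 130 in normoxia) and Thy1 was not higher (187 to 231 against 207 to 558). The 5 epithelial markers summed to 8.30 to 10.03 CPM in wild-type hypoxia, led by Krt14, and to 2.202 to 3.47 in the other groups, with Epcam at 0 throughout. The 4 erythroid markers summed to at most 0.441. The summed level of the 4 leukocyte markers was at most 13.02 CPM in normoxia, 35.5 to 35.8 in wild-type hypoxia and 54.5 to 58.96 in ΔN-VEGF hypoxia, led by Csf1r, while the defining markers Ptprc and Cd3e stayed at or below 0.0685 CPM. The 4 endothelial markers summed to at most 4.32 CPM in normoxia and to between 6.09 and 25.4 in hypoxia, led by Cdh5. The part of these in the results below was not tested.

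Vegfa, which carries the deleted segment, was measured as a whole gene, so its count does not resolve the deletion. Its level was 86.1, 39.4 and 82.6 CPM in wild-type normoxia, 277, 272 and 291 in wild-type hypoxia, 37.3, 34.2 and 35.5 in ΔN-VEGF normoxia, and 437, 419 and 430 in ΔN-VEGF hypoxia. All hypoxic samples lay above all normoxic ones. Adjusted p came from the quasi-likelihood F test of edgeR with Benjamini-Hochberg adjustment over all genes tested in a fit, 14724 with all 12 samples and 15083 without both normoxia samples numbered 2. Hypoxia raised Vegfa in wild type by 2.01 log2 units (adjusted p 5.8e-05) and in the ΔN-VEGF line by 3.59 (6.6e-07), a difference of responses of 1.57 (0.028). Between the lines, Vegfa was lower in ΔN-VEGF normoxia (-0.96, adjusted p 0.039) and did not pass in hypoxia (0.61, 0.074). The normoxia call was lost with total counts in place of TMM (0.057) and in a fit of only those 6 samples (0.40). Without both normoxia samples numbered 2, the line differences were -1.20 and 0.61, and both passed.

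The first question was which of these genes respond to hypoxia. In wild type, 3 of the 7 tested members rose (Car9, Car6 and Slc4a4), where 18.2% of all tested genes rose, and 2 fell (Car13 and Slc4a7), where 18.3% of all genes fell. In ΔN-VEGF cells the members that rose were again Car9, Car6 and Slc4a4, beside 26.9% of all genes, and those that fell were again Car13 and Slc4a7, beside 26.4%. The 7 members had a median log2 fold change of 0.02 in both lines, beside medians over all tested genes of -0.07 (wild type) and -0.01 (ΔN-VEGF). Car5b and Slc4a2 did not pass in either line. Both hypoxia comparisons thus held members that rose beside members that fell.

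**Figure D1:**
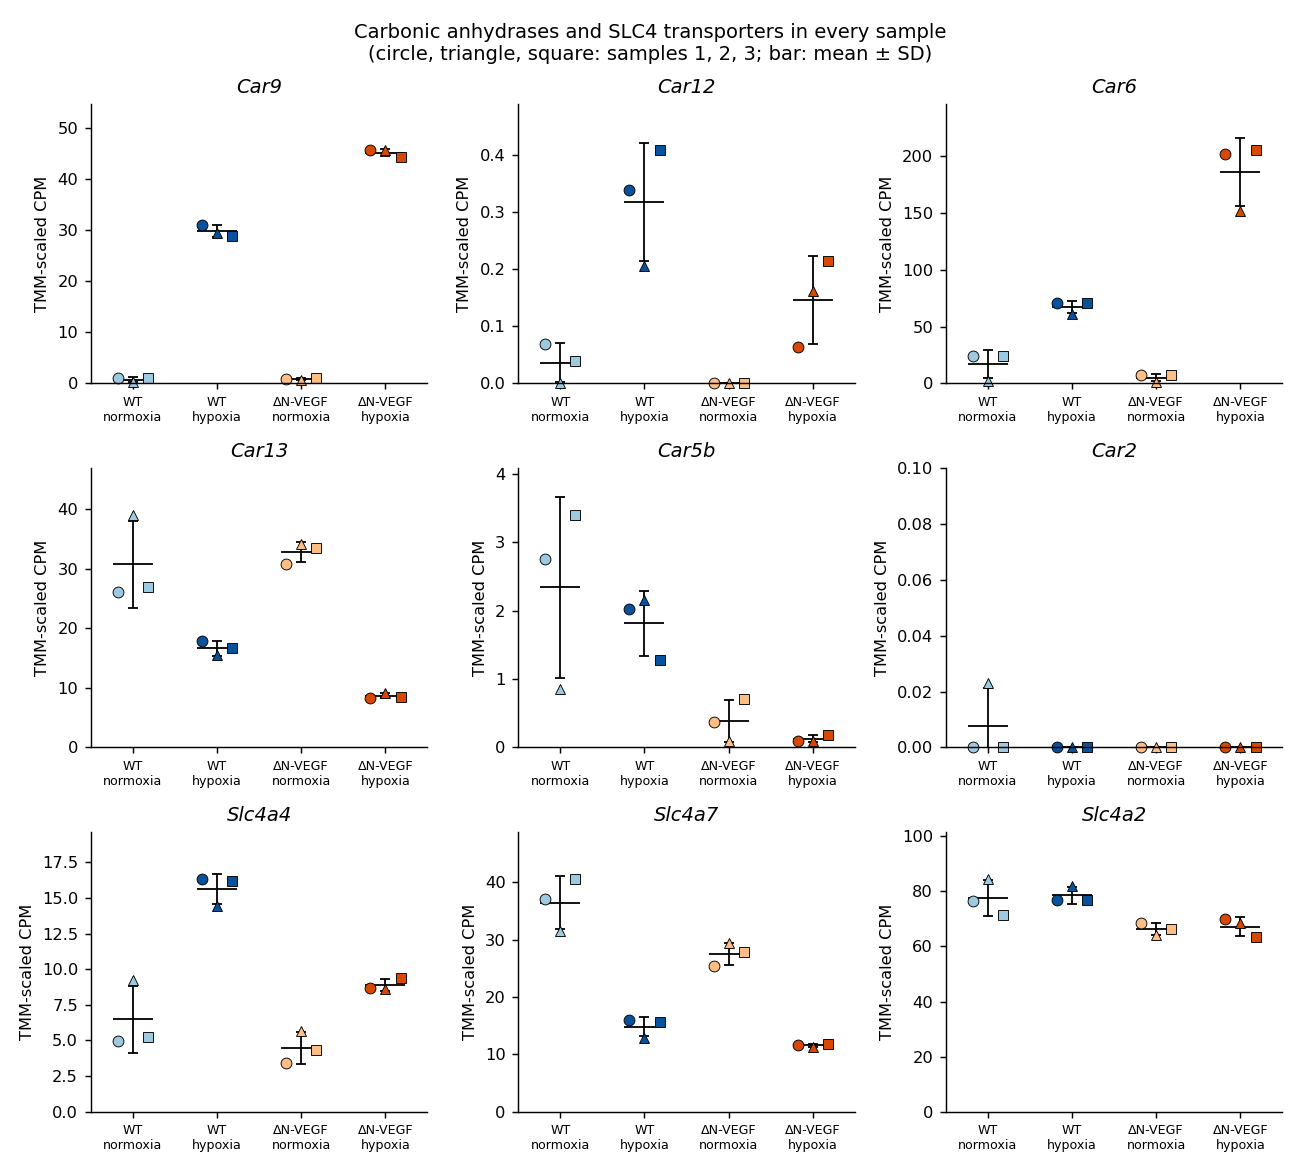
Level of each of the 9 genes (vertical axis, TMM-scaled CPM, each panel with its own scale from 0) in the 12 samples, by group on the horizontal axis. Circles, triangles and squares are the samples numbered 1, 2 and 3, and bars give the mean ± SD of 3. Car9 and Car6 are highest in ΔN-VEGF hypoxia, Car13 is lowest there, and Car2 has 1 read in all.

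Car9, the membrane-bound enzyme that acidifies the outside of hypoxic cells, had the largest fold change of the tested members in both lines. The gene (ENSMUSG00000028463) lies on the plus strand at chr4:43506966-43513729 (GRCm38). Wild-type normoxia had 42, 8 and 51 reads, or 0.958, 0.186 and 0.982 CPM, and wild-type hypoxia had 1200, 864 and 1136 reads, or 31.1, 29.6 and 28.9 CPM. In ΔN-VEGF cells the level went from 0.753, 0.616 and 1.0 CPM in normoxia to 45.7, 45.7 and 44.4 CPM in hypoxia. No hypoxic sample overlapped a normoxic one, and the hypoxic samples of the 2 lines did not overlap either. In log2 units the wild-type rise was 5.38 (SE 0.39, 41.5-fold, adjusted p 2.1e-06) and the ΔN-VEGF rise 5.84 (SE 0.40, adjusted p 6.6e-07), or 4.95 and 5.69 without both normoxia samples numbered 2. Exons of Car9 overlap the antisense gene Gm12454 over 214 of 2304 bases. Gm12454 had at most 0.804 CPM in any sample, and the strand setting of the counting is not given in the sources used here.

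Hypoxia-inducible factors recognise a short core, ACGTG or GCGTG, in the hypoxia response element, so the 250 bases before the RefSeq start of each member were searched for these letters on both strands. The windows show the matches in the members that rose, 5′ to 3′ on the strand of the gene, with the core letters in capitals.
Car9: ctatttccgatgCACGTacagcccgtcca
Car6: gaggaggtgaggCACGTGcacaggcaccaa
Slc4a4: aacttcccagccCACGCcgcccgggtccc
The Car9 window is chr4:43506996-43507024 (GRCm38.p6, plus strand), with ACGTG on the opposite strand starting 18 bases before the RefSeq start, in a stretch that GENCODE M21 annotates as a non-coding part of an exon. The Car6 window is chr4:150201267-150201296 (minus strand), where ACGTG on both strands overlaps in the palindrome CACGTG, 149 bases before the start and again in a non-coding exon part of another annotated transcript. The Slc4a4 window is chr5:88887129-88887157 (plus strand), with GCGTG on the opposite strand 119 bases before the first of 2 listed starts, in a non-coding exon part. Of the 32851 promoters of this length in the table, 16.6% held ACGTG, 28.2% held GCGTG and 38.6% held either. Of the 7 members found in the table, Slc4a2 also held 1 GCGTG, at the first of its 2 listed starts, and Car5b held 5, while Car12 and Slc4a7 held neither motif. The second listed starts of Slc4a4 and Slc4a2 held neither motif, and the shares above count each listed promoter. Car2 and Car13 had no entry. A match of letters is a description and not a binding site.

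Car6, the secreted carbonic anhydrase, rose in hypoxia in both lines. The gene (ENSMUSG00000028972) lies on the minus strand at chr4:150187015-150201332. Wild-type normoxia had 1051, 101 and 1261 reads (24.0, 2.34 and 24.3 CPM), and wild-type hypoxia had 2712, 1774 and 2762 reads (70.4, 60.7 and 70.3 CPM). ΔN-VEGF normoxia had 323, 50 and 280 reads (6.95, 1.18 and 6.86 CPM), and ΔN-VEGF hypoxia had 6450, 4728 and 6704 reads (202, 152 and 205 CPM). The sample numbered 2 was the lowest in every group, by about an order of magnitude in wild-type normoxia, and hypoxic samples did not overlap normoxic ones. In log2 units Car6 rose by 1.99 in wild type (SE 0.71, adjusted p 0.049) and by 5.22 in the ΔN-VEGF line (SE 0.83, adjusted p 0.00033). The wild-type call was lost in 14 of 21 other settings, with adjusted p between 1.3e-10 and 0.12 over all of them. Leaving out both normoxia samples numbered 2 gave 1.48 in wild type (adjusted p 1.3e-10) and 4.75 in the ΔN-VEGF line.

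Slc4a4, which loads sodium and bicarbonate into or out of the cell, was the only SLC4 member that rose among the 3. The gene (ENSMUSG00000060961) lies on the plus strand at chr5:88886818-89239653. Its level was 5.0, 9.21 and 5.22 CPM in wild-type normoxia and 16.3, 14.4 and 16.2 CPM in wild-type hypoxia. The ΔN-VEGF line had 3.40, 5.66 and 4.34 CPM in normoxia and 8.71, 8.62 and 9.35 CPM in hypoxia. Normoxic and hypoxic samples were apart in each line, and the ΔN-VEGF hypoxic range overlapped that of wild-type normoxia. In log2 units Slc4a4 rose by 1.28 in wild type (SE 0.24, adjusted p 0.0017) and by 0.99 in the ΔN-VEGF line (SE 0.24, adjusted p 0.0051).

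Car13, a cytosolic enzyme, and Slc4a7, the electroneutral sodium-bicarbonate cotransporter, fell. Car13 (ENSMUSG00000027555, plus strand, chr3:14641727-14663002) was at 26.2, 39.1 and 26.9 CPM in wild-type normoxia and 17.8, 15.4 and 16.6 CPM in wild-type hypoxia. ΔN-VEGF cells had 30.8, 34.1 and 33.5 CPM in normoxia and 8.33, 9.16 and 8.55 CPM in hypoxia. Every hypoxic sample lay below every normoxic one, and the hypoxic ΔN-VEGF samples lay below the hypoxic wild-type samples. The log2 fold change of Car13 was -0.89 for wild type (SE 0.15, adjusted p 0.00079) and -1.92 for the ΔN-VEGF line (SE 0.15, adjusted p 2.1e-06). Slc4a7 (ENSMUSG00000021733, plus strand, chr14:14702279-14799940) was at 37.2, 31.5 and 40.6 CPM in wild-type normoxia and 15.98, 12.9 and 15.6 CPM in wild-type hypoxia. Its ΔN-VEGF levels were 25.5, 29.4 and 27.8 CPM in normoxia and 11.6, 11.4 and 11.7 CPM in hypoxia. The hypoxic samples of both lines were all below the normoxic ones, and the fold changes were near each other, -1.30 (wild type, SE 0.12, adjusted p 1.3e-05) and -1.25 (ΔN-VEGF, SE 0.12, adjusted p 9.6e-06). In these bulk libraries, fewer cells that carry a transcript and less of it per cell cannot be told apart.

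Slc4a2, the exchanger that moves bicarbonate out against chloride, was at similar levels in both conditions. The gene (ENSMUSG00000028962) lies on the plus strand at chr5:24423837-24440950. It was at 76.5, 84.6 and 71.4 CPM in wild-type normoxia and 76.8, 82.1 and 76.7 CPM in wild-type hypoxia. ΔN-VEGF cells had 68.4, 64.2 and 66.4 CPM in normoxia and 69.8, 68.5 and 63.4 CPM in hypoxia. The ranges overlapped between the conditions of each line. The log2 fold change in hypoxia was 0.02 in both lines (SE 0.09, with adjusted p of 0.88 for wild type and 0.87 for ΔN-VEGF). This value turns with the scaling: with total counts in place of TMM the wild-type value was -0.20 (adjusted p 0.055) and the ΔN-VEGF value -0.39 (adjusted p 0.0013), and all tested genes then had medians of -0.30 and -0.41. Exons of Slc4a2 share 1141 of 8322 bases with Fastk on the opposite strand, which was at 88.4 to 103 CPM in hypoxia and at most 61.3 in normoxia, so reads of the pair may be split uncertainly.

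Car5b, the mitochondrial enzyme, had few reads and a wide normoxic spread. The gene (ENSMUSG00000031373) lies on the minus strand at chrX:163976822-164027997. Wild-type normoxia had 121, 37 and 177 reads (2.76, 0.859 and 3.41 CPM), and wild-type hypoxia had 78, 63 and 50 reads (2.02, 2.16 and 1.27 CPM). ΔN-VEGF normoxia had 17, 4 and 29 reads (0.366, 0.0947 and 0.710 CPM), and ΔN-VEGF hypoxia had 3, 3 and 6 reads (0.0939, 0.0965 and 0.184 CPM). Conditions overlapped in both lines, whereas each ΔN-VEGF sample lay below each wild-type sample. The log2 fold change in hypoxia was -0.37 for wild type (SE 0.54, adjusted p 0.62) and -1.61 for ΔN-VEGF (SE 0.81, adjusted p 0.12). With both normoxia samples numbered 2 left out the values were -0.78 (adjusted p 0.0021) and -2.05 (adjusted p 0.0013), and both passed.

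Car12, the other membrane-bound enzyme with an outward-facing catalytic domain, was near the detection limit and below the filter on low counts. The gene (ENSMUSG00000032373) lies on the plus strand at chr9:66713686-66766845. It had 3, 0 and 2 reads in wild-type normoxia, 13, 6 and 16 in wild-type hypoxia, 0 in each sample of ΔN-VEGF normoxia, and 2, 5 and 7 in ΔN-VEGF hypoxia. Every hypoxic sample of a line had more CPM than its normoxic samples, though the lowest ΔN-VEGF hypoxic level, 0.0626 CPM, lies under the 0.0646 to 0.0735 CPM that a count of 0 (a limit of 3 reads) allows in the ΔN-VEGF normoxia samples. Summed over a group and scaled for library size, hypoxia against normoxia gave a ratio of 9.08 in wild type (exact 95% counting interval 3.54 to 29.7), and ΔN-VEGF cells were at least 6.32-fold higher, against 3 reads over the group. These intervals cover counting error only. Car2 (ENSMUSG00000027562, plus strand, chr3:14886273-14900770), the abundant cytosolic enzyme of red cells and kidney, had 1 read among 466035058 in the 12 samples, and a count of 0 allows up to 0.0578 to 0.103 CPM per sample.

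**Figure D2:**
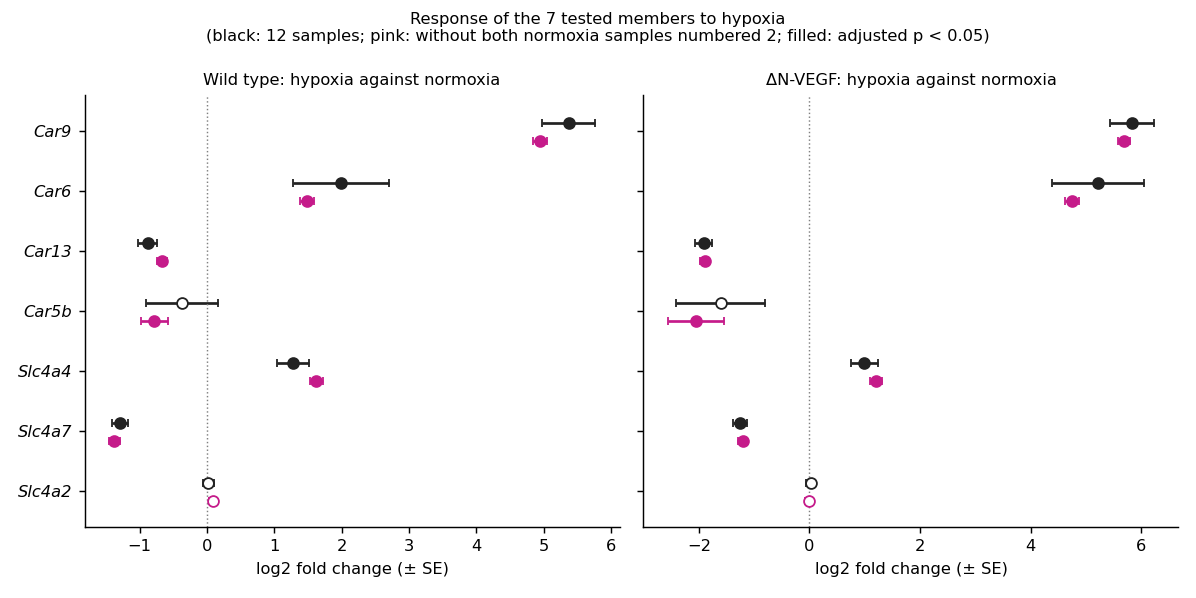
Log2 fold change of hypoxia against normoxia (horizontal axis, ± SE) for the 7 tested members (vertical axis) in wild type (left) and ΔN-VEGF cells (right). Black points use all 12 samples, pink points leave out both normoxia samples numbered 2, and filled points have an adjusted p below 0.05. Car9, Car6 and Slc4a4 are right of 0 and Slc4a7 and Car13 left of it in both lines, and Slc4a2 sits at 0.02.

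Leaving out both normoxia samples numbered 2 widened the calls across the genome and among the members alike. With Car12 then past the filter, 4 of 8 tested members rose and 3 fell in wild type, where 32.8% and 32.5% of all tested genes did. In ΔN-VEGF cells 4 rose and 3 fell, beside 35.4% and 36.0% of all genes. The added calls were Car12 among the rises and Car5b among the falls in both lines, and Slc4a2 remained without a call.

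Levels were compared between genes per kilobase of annotated exons (CPM per kb), since longer transcripts give more reads. In wild-type hypoxia the order was Car6 (37.0 ± 3.06, SD, n = 3), Car9 (12.97 ± 0.49), Slc4a2 (9.44 ± 0.37), Car13 (7.23 ± 0.52), Slc4a4 (1.45 ± 0.10), Slc4a7 (0.976 ± 0.11), Car5b (0.286 ± 0.075), Car12 and Car2, and no neighbours in it overlapped. In ΔN-VEGF hypoxia the same order held from Car6 (103 ± 16.5) and Car9 (19.7 ± 0.32) down to Car5b (0.0196 ± 0.0081), whose samples overlapped those of Car12. In normoxia the order over 3 samples was led by Car13, at 13.4 ± 3.15 (wild type) and 14.3 ± 0.75 (ΔN-VEGF), followed by Slc4a2. Wild-type neighbours from Slc4a2 to Car6 (9.29 ± 6.92) and from Car6 to Slc4a7 (2.40 ± 0.30) overlapped, as did Slc4a4, Car5b and Car9 further down. The wild-type lead of Car13 rested on the sample numbered 2: in the other samples of that group Car6 was at 13.2 and 13.4 CPM per kb and Car13 at 11.4 and 11.7, so Car6 came first. In ΔN-VEGF normoxia Car13 still led without sample 2, at 13.4 and 14.6. By this measure the secreted Car6 and membrane-bound Car9 were the highest members in the hypoxia of both lines. The length used joins the exons of all annotated transcripts. It was 8322 bases over 15 transcripts for Slc4a2, 1816 over 4 for Car6 and 2304 over 7 for Car9. In plain CPM, Slc4a2 (78.5) lay above Car6 (67.1) and Car9 (29.9) in wild-type hypoxia. In ΔN-VEGF hypoxia Car6 (186) led in plain CPM, before Slc4a2 (67.2) and Car9 (45.3).

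**Figure D3:**
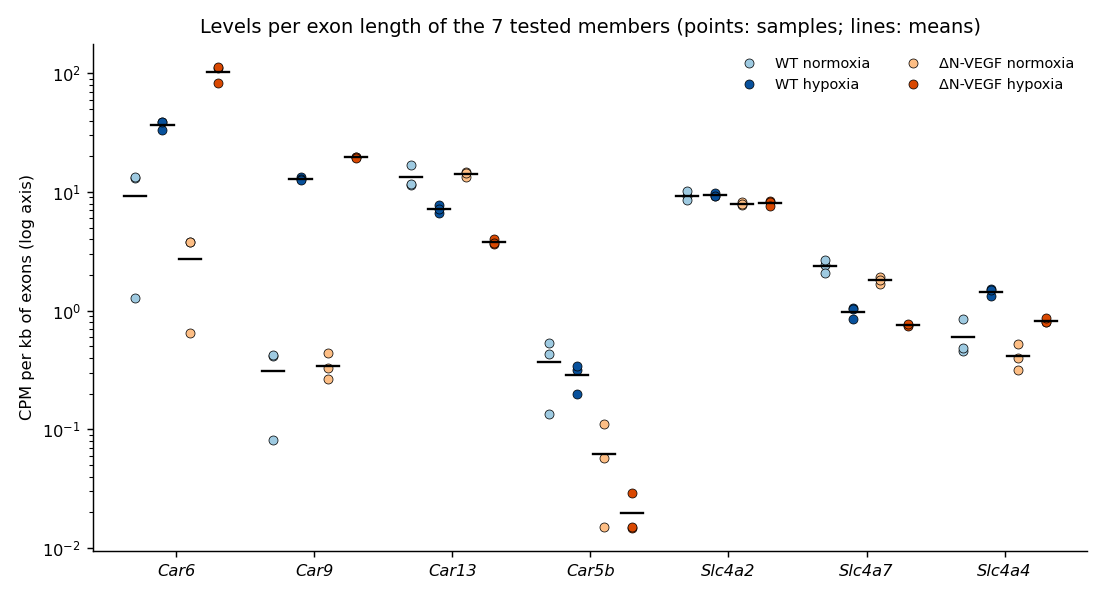
Level per kilobase of exons (vertical axis, CPM per kb, log scale) of the 7 tested members (horizontal axis) in the 4 groups. Points are samples and lines are the means of 3. Car6 and Car9 reach 103 and 19.7 CPM per kb in ΔN-VEGF hypoxia, above Slc4a2 at 8.08.

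The next question was whether ΔN-VEGF cells differed from wild type under the same oxygen. In normoxia 1 of the 7 tested members, Car5b, was lower in ΔN-VEGF cells, where 2.97% of all tested genes were, and 0 were higher (0 also at an unadjusted p below 0.05 and with DESeq2), where 1.39% were. Car5b differed by -2.59 on the log2 scale (SE 0.60, adjusted p 0.039), and its samples did not overlap between the lines. The call was lost when any 1 of 11 samples was left out (all but wild-type normoxia 2) and in the fit of only these 6 samples (adjusted p 0.38, where 7 of 13934 genes were higher and 8 lower). Adding the replicate number as a block to that fit gave -2.69 (SE 0.29, p 0.00043 before adjustment), but an adjusted p of 0.13 in a fit where 1 gene passed. The direction was the same in every setting run, between -3.30 and -2.12. Slc4a7 and Slc4a2 did not overlap between the lines either but missed the threshold, at -0.40 (adjusted p 0.086) and -0.22 (adjusted p 0.18). The share of all tested genes without overlap between the lines is not given here, so this describes these genes only. Car6 differed by -1.75 (adjusted p 0.22), Slc4a4 by -0.54 (0.26), Car9 by 0.14 (0.88) and Car13 by 0.09 (0.77), with overlapping samples. Within pairs of the same number, the ΔN-VEGF sample was the lower in 3 of 3 pairs for Car6, Slc4a4, Car5b, Slc4a2 and Slc4a7, and in 1 of 3 for Car9 and Car13. For Car5b, Slc4a2 and Slc4a7, whose samples did not overlap, any pairing gives that count. The fit of 6 samples with the replicate block gave -1.57 for Car6 (SE 0.22, p 0.0013 before adjustment, adjusted p 0.14) and -0.50 for Slc4a4 (SE 0.16, p 0.028, adjusted p 0.28), by the quasi-likelihood test of edgeR. Before adjustment, the quasi-likelihood test of edgeR gave p of 0.035 for Car6, 0.025 for Slc4a2, 0.047 for Slc4a4 and 0.0060 for Slc4a7. When both samples numbered 2 were left out, 1 member was higher (Car13) and 5 were lower (Car5b, Car6, Car12, Slc4a4 and Slc4a7) of 8 tested, beside 27.8% and 25.8% of all genes.

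In hypoxia 3 of the 7 tested members were lower in ΔN-VEGF cells, where 9.36% of all tested genes were, and 0 were higher (0 also at an unadjusted p below 0.05 and with DESeq2), where 10.8% were. Car5b differed most, by -3.82 on the log2 scale (SE 0.74, adjusted p 0.0052), with 12 reads over the 3 ΔN-VEGF samples against 191 in wild type. Car13 differed by -0.94 (SE 0.15, adjusted p 0.0020) and Slc4a4 by -0.82 (SE 0.24, adjusted p 0.034), a call lost in 7 of 21 other settings, each without 1 sample (any hypoxic sample or ΔN-VEGF normoxia 3). None of these overlapped between the lines. The samples of Car6, Car9, Slc4a7 and Slc4a2 did not overlap either, yet their tests did not pass: Car6 was higher by 1.47 (SE 0.70, adjusted p 0.17), Car9 by 0.60 (SE 0.31, adjusted p 0.20), and Slc4a7 and Slc4a2 were at -0.36 (0.058) and -0.23 (0.092). As in normoxia, the share of all tested genes without overlap is not given here, so the lack of overlap is not shown to be particular to the members.

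The hypoxia comparison uses none of the normoxia samples directly, but the shared estimate of spread does. In a fit of only the 6 hypoxic samples all 7 tested members passed, Car6 and Car9 as higher in ΔN-VEGF cells (1.47 with adjusted p 1.3e-09, and 0.59 with 3.9e-07) and the other 5 as lower, in a fit where 27.9% of all tested genes were higher and 29.1% lower. The same fit with the replicate number as a block also passed 7, beside 30.0% and 31.2% of all genes. With both normoxia samples numbered 2 left out and Car12 tested, 2 members were higher and 6 lower, beside 27.5% and 28.3% of all tested genes. Between the lines in hypoxia, Car12 had 14 reads against 35, a ratio of 0.448 (exact 95% counting interval 0.222 to 0.853).

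**Figure D4:**
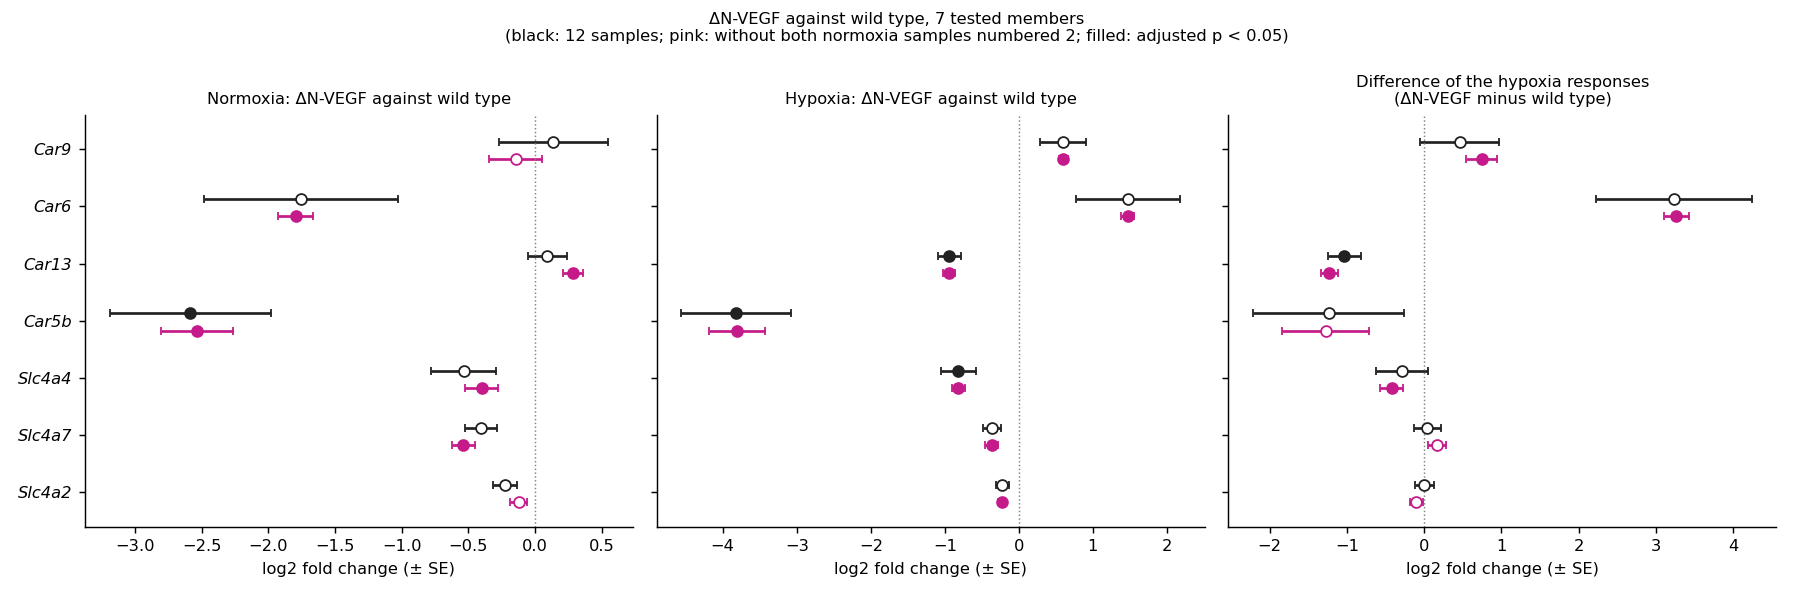
Log2 fold change of ΔN-VEGF cells against wild type (horizontal axes, ± SE) for the 7 tested members (vertical axis) in normoxia (left) and hypoxia (middle), and the difference of the hypoxia responses, ΔN-VEGF minus wild type (right). Black points use all 12 samples, pink points leave out both normoxia samples numbered 2, and filled points have an adjusted p below 0.05. Car5b is left of 0 in both conditions, and Car6 is left of 0 in normoxia and right of it in hypoxia.

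The last comparison asked whether hypoxia acted differently on a gene in the 2 lines. Car13 was the 1 member of 7 that passed as lower, with a response more negative in ΔN-VEGF cells by 1.03 on the log2 scale (-1.03, SE 0.21, adjusted p 0.029), where 1.15% of all tested genes passed as lower and 2.21% as higher. Car6 had the next smallest p (0.0084 before adjustment). Adjusted p of Car13 ranged from 1.3e-08 to 0.096 over 19 other settings, and 10 of them, each leaving out a sample other than the normoxia samples numbered 2, lost the call. Car6 had the largest difference, 3.23 (SE 1.01, adjusted p 0.10), with a line difference of -1.75 in normoxia and 1.47 in hypoxia. This became 3.26 (adjusted p 1.6e-12) without both normoxia samples numbered 2, and 3.73 (0.00012) without the wild-type sample alone. With both left out, Car9 (0.74, adjusted p 0.0050), Slc4a4 (-0.42, 0.025) and Car13 (-1.23, 1.3e-08) also passed, so that 2 of 8 members were higher and 2 lower beside 25.8% and 27.0% of all genes. With all 12 samples Car9 was at 0.46 (adjusted p 0.65), Slc4a4 at -0.28 (0.67), Car5b at -1.23 (0.50), Slc4a7 at 0.04 (0.91) and Slc4a2 at -0.00054 (0.9998).

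Genes whose log2 CPM followed the members most closely over the 12 samples were sought among 8516 tested genes with a mean of at least 10 CPM. Car9 was followed by Ndufv3 (Pearson r 0.997), Pcyt1b (0.997) and Eno2 (0.996), Car6 by Rhbdd1 (0.994), Fosl2 (0.993) and Trim41 (0.989), and Car13 by Myef2 (0.991), Phf6 (0.991) and Plk3 (0.990). Slc4a4 was closest to Nabp1 (0.989), Cfap36 (0.982) and Tns3 (0.982), and Slc4a7 to Galnt7 (0.992), Cdc37l1 (0.989) and Myo5a (0.988). Slc4a2, with little spread, reached 0.961 with Glis2, 0.920 with Gga3 and 0.906 with Tmem63b, and Car5b, with few reads, 0.969 with Supt3, 0.967 with 4933412E12Rik and 0.963 with Tnc. The points fall into 4 groups and share libraries, so these values are a description and carry no p. Ranked by Spearman correlation, with ties sharing the best rank, none of these genes stayed in the top 3 for Car5b, Car6, Car9 or Slc4a7. Cfap36 stayed for Slc4a4, Glis2 and Tmem63b for Slc4a2, and Myef2 for Car13, as 1 of 17 genes tied at a rho of 1.0.

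Members were set beside 78 other genes of pH regulation, of which 44 were tested: other carbonic anhydrases and SLC4 genes, sodium-proton exchangers, monocarboxylate transporters, SLC26 exchangers, the vacuolar proton ATPase, and proton sensors. In wild-type hypoxia 6 of the 44 rose and 8 fell, and in ΔN-VEGF hypoxia 9 rose and 10 fell, against the same shares of all genes as above. Their medians were -0.09 and 0.03 on the log2 scale. With total counts in place of TMM the counts were 3 higher and 16 lower in wild type, and 6 higher and 21 lower in the ΔN-VEGF line. Over all tested genes that scaling gave 12.8% higher and 32.7% lower in wild type, and 15.3% and 44.5% in ΔN-VEGF cells. The list held both directions in both lines under either scaling.

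**Figure D5:**
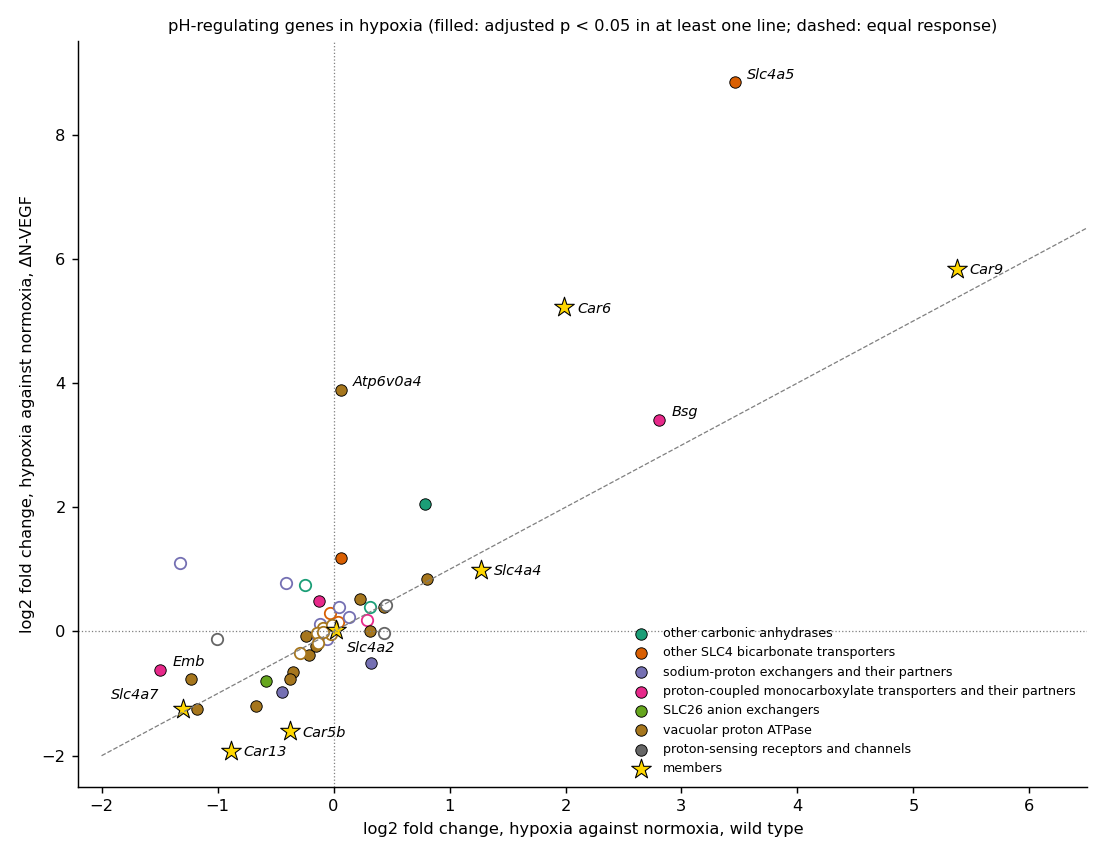
Log2 fold change of hypoxia against normoxia in wild type (horizontal axis) and in ΔN-VEGF cells (vertical axis) for 44 other pH-regulating genes, coloured by family, and the 7 tested members (stars). Filled circles have an adjusted p below 0.05 in at least 1 line, and the dashed line marks equal responses. Bsg lies at 2.81 and 3.41, and Atp6v0a4 at 0.06 and 3.89.

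Among the 10 other carbonic anhydrases 3 were tested, and 1 passed: Car7, a cytosolic form, rose in ΔN-VEGF hypoxia by 2.05 (adjusted p 0.0023), beside 26.9% of all tested genes. Without both normoxia samples numbered 2, 4 were tested. Then Car11 (-0.69, adjusted p 1.9e-06) and Car14 (-1.70, 0.0051) fell in wild type, beside 32.5% of all genes, and Car7 (1.86, 5.8e-05) and Car11 (0.46, 0.00027) rose in ΔN-VEGF cells, beside 35.4%. Of the 7 other SLC4 genes 4 were tested. Slc4a5, an electrogenic sodium-bicarbonate cotransporter, had 3 reads over wild-type normoxia and 28 over wild-type hypoxia, a ratio of 12.1 (exact 95% counting interval 3.74 to 62.2), and 1 read over ΔN-VEGF normoxia against 477 over ΔN-VEGF hypoxia. In hypoxia its ΔN-VEGF level was 19.1 times that of wild type (13.02 to 28.99), and the gene passed at 4.19 on the log2 scale (adjusted p 0.00015). Slc4a11 was lower in ΔN-VEGF cells in normoxia (-0.63, adjusted p 0.044) and higher in hypoxia (0.49, adjusted p 0.042), having risen with hypoxia in that line by 1.19 (7.7e-05). Of these calls the one in normoxia was lost without any 1 of 11 samples (all but wild-type normoxia 2) and the one between the lines in hypoxia without any 1 of 8, among them all hypoxic ones.

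The monocarboxylate transporters carry lactate together with a proton, and need Bsg (basigin) or Emb (embigin) as a partner at the membrane. Of 6 such transporters and partners 4 were tested. In wild type 1 rose and 1 fell (18.2% and 18.3% of all tested genes), and in ΔN-VEGF cells 2 rose and 0 fell (26.9% and 26.4%). The transporter Slc16a1 did not pass in wild type (-0.13, adjusted p 0.43) and rose in ΔN-VEGF cells by 0.49 (0.0049). Slc16a3 passed neither in wild type (0.29, 0.43) nor in ΔN-VEGF cells (0.19, 0.59). Bsg had 21182 to 25042 reads per sample in wild-type normoxia, 108992 to 140443 in wild-type hypoxia, 26167 to 30825 in ΔN-VEGF normoxia and 221917 to 228252 in ΔN-VEGF hypoxia. Bsg rose by 2.81 log2 units in wild type (adjusted p 9.5e-09) and by 3.41 in the ΔN-VEGF line (adjusted p 1.7e-09). Emb fell in wild type (-1.496, adjusted p 0.0011) and did not pass in ΔN-VEGF cells (-0.62, 0.060), a difference of responses that did not pass either (0.88, 0.20). In hypoxia it was higher in ΔN-VEGF cells than in wild type by 1.71 (adjusted p 0.0017).

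Of 25 genes of the vacuolar proton ATPase, the pump that acidifies lysosomes and other compartments, 20 were tested. In wild type 3 rose and 5 fell (18.2% and 18.3% of all tested genes), and in ΔN-VEGF cells 4 rose and 7 fell (26.9% and 26.4%). Atp6v0e rose in wild type by 0.81 (adjusted p 0.00013) and in ΔN-VEGF cells by 0.84 (5.2e-05). Atp6ap2, an accessory subunit, fell in wild type by 1.23 (2.3e-05) and in ΔN-VEGF cells by 0.77 (0.00033). Atp6v0e2 fell by 1.18 (4.5e-05) and 1.25 (1.6e-05), and Atp6v0a2 by 0.67 (0.0016) and 1.195 (1.6e-05), in the same order. Atp6v0a4 was at 8 to 25 reads in every sample of the other 3 groups, and at 162, 139 and 154 reads in ΔN-VEGF hypoxia, where it rose by 3.89 (adjusted p 2.0e-05), or by 4.67 (2.1e-13) without both normoxia samples numbered 2. In hypoxia 7 of the 20 were higher in ΔN-VEGF cells than in wild type and 1 lower (10.8% and 9.36% of all tested genes), and in normoxia 3 were higher (1.39%). With total counts the hypoxia split was 2 higher and 3 lower (4.57% and 22.2% of all genes), and 1 was higher in normoxia (1.21%). Without both normoxia samples numbered 2, 13 were higher and 3 lower in hypoxia (27.5% and 28.3%), and 12 were higher and 0 lower in normoxia (27.8% and 25.8%). Those called in normoxia held Atp6v1b2 (0.52, adjusted p 0.0083) and Atp6v1d (0.40, 0.036), both subunits of the cytosolic sector that binds ATP, and the call of Atp6v1d was lost without any 1 of 10 samples (all but wild-type normoxia 2 and wild-type hypoxia 2).

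Of 15 sodium-proton exchangers and partners 9 were tested. Chp1, a calcium-binding partner of these exchangers, fell with hypoxia in wild type by 0.44 (adjusted p 0.026, a call lost when any 1 hypoxic wild-type sample, or wild-type normoxia 1 or 3, was left out) and in ΔN-VEGF cells by 0.97 (0.00015). Compared between the lines in hypoxia, it was lower in ΔN-VEGF cells than in wild type (-0.56, adjusted p 0.017), a call lost without hypoxic sample 1 or 3 of either line. Slc9a3r1, a scaffold protein, was lower in ΔN-VEGF cells in normoxia (-0.89, adjusted p 0.0060) and in hypoxia (-0.95, 0.0013). Slc9a5 was lower in ΔN-VEGF cells in hypoxia (-0.96, 0.00018), having risen with hypoxia in wild type by 0.32 (0.023) and fallen in ΔN-VEGF cells by 0.50 (0.0014). The wild-type rise did not pass with total counts, or without wild-type normoxia 3 or wild-type hypoxia 2 or 3. Slc9a9, an endosomal exchanger, was lower in normoxia by -3.17 (adjusted p 0.030), with 200, 16 and 224 reads in wild type against 13, 17 and 14, so that the wild-type sample numbered 2 lay within the ΔN-VEGF range. Its value became -3.82 (adjusted p 5.4e-11) without both normoxia samples numbered 2, and the call was lost without any 1 of 11 samples (all but wild-type normoxia 2). Asic1, a proton-gated channel, was higher in ΔN-VEGF normoxia (0.95, adjusted p 0.049), a call lost without any 1 of 10 samples (all but the normoxia samples numbered 2). Over the whole list, 5 of 44 were higher in ΔN-VEGF cells in normoxia and 3 lower, beside 1.39% and 2.97% of all tested genes. In hypoxia 13 were higher and 4 lower, beside 10.8% and 9.36%, or 7 and 7 with total counts (4.57% and 22.2% of all genes). Once both normoxia samples numbered 2 were left out, 46 were tested. Then 9 rose and 16 fell in wild-type hypoxia (32.8% and 32.5% of all tested genes), and 16 rose and 14 fell with hypoxia in the ΔN-VEGF line (35.4% and 36.0%). Between the lines, 16 were higher and 9 lower in normoxia (27.8% and 25.8%), and 23 were higher and 8 lower in hypoxia (27.5% and 28.3%).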

How the data were processed

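RNA-seq counts of 12 samples were used. Per the labels and the methods, the authors made libraries with the TruSeq RNA Library Prep kit v2, sequenced 80-bp single reads, trimmed them with Trim Galore, aligned them to GRCm38 with TopHat2 2.1.0 and Bowtie2 2.2.6, and deposited the raw count of reads per gene from HTSeq 0.6.1. The strand setting of the counting is not given in the sources used here. Whole-number counts were used as deposited, and columns of the authors' own comparisons were not used.

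Members and lists were chosen with earlier results of these data known. The genes named are all members, Vegfa, the 3 closest genes of each tested member, and, of the other pH-regulating genes, the 3 largest rises and 3 largest falls called per comparison with a mean of at least 1 CPM. Car7, Car11, Car14, Slc16a1, Slc16a3, the hypoxia values of Slc4a11, Gm12454, Fastk and the marker genes named were added after their values were seen.

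The filter filterByExpr (minimum count 10) left 14724 genes. Their tests used the quasi-likelihood F statistic of edgeR 4.0.16 under R 4.3.3, after TMM scaling, in a single model of 12 samples with 1 mean per group, and p-values were adjusted by Benjamini-Hochberg with a threshold of 0.05. Standard errors are the log2 fold change over the root of F. Log2 CPM used a prior count of 2. Exons and positions came from GENCODE M21, whose positions of all members were those of the deposited table, and promoters from RefSeq (GRCm38.p6), where 7 members matched. Count intervals are exact 95% intervals. The code was tested on simulated counts.

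Alternatives were DESeq2 1.42.0, RLE size factors, total counts, a minimum of 10 counts in each sample or no filter, only the 6 samples of a comparison, a replicate block, a 2-fold threshold, each sample left out, and, added after seeing the data, both normoxia samples numbered 2 left out. Between samples of the same number, deviations from the group mean correlated at 0.378, 0.498 and 0.355 for the lines in normoxia, so the numbers were taken to pair those samples, from the data alone. In hypoxia the values were 0.021, 0.109 and 0.088, in wild type -0.018, 0.009 and 0.049, and in ΔN-VEGF cells 0.065, 0.056 and 0.047.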

Additional observations from a re-analysis of the deposited data

Results flagged for a closer look

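The responses to hypoxia differed between the lines, by the interaction term of edgeR's model (Benjamini-Hochberg adjustment over all tested genes), for 1 member and 4 of 44 other pH-regulating genes, 3 higher and 1 lower, beside 2.21% and 1.15% of all tested genes. All values are log2 differences, ΔN-VEGF minus wild type. Car13 differed by -1.03 (adjusted p 0.029), a deeper fall in ΔN-VEGF cells. Atp6v0a4 differed by 3.83 (0.011), with its high reads in ΔN-VEGF hypoxia. Slc4a11 differed by 1.12 (0.022) and Bsg by 0.60 (0.033), both with the larger response in ΔN-VEGF cells. Slc9a5 differed by -0.82 (0.013), having risen in wild type and fallen in ΔN-VEGF cells. With total counts its wild-type rise did not pass. Leaving out 1 sample at a time, the call was lost in 10 of 12 cases for Bsg, 8 for Slc4a11 and 3 for Slc9a5, and Atp6v0a4 kept its call and moved to 4.602 without ΔN-VEGF normoxia 2. The call of Car13 was lost in 10 of 19 other settings, and its difference without both normoxia samples numbered 2 was -1.23.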

How the results depend on the processing

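Of the 5 comparisons, the members called were 5, 5, 1, 3 and 1 (wild-type hypoxia, ΔN-VEGF hypoxia, the lines in normoxia, the lines in hypoxia, and the difference of responses), and the other pH-regulating genes called were 14, 19, 8, 17 and 4. Leaving out 1 sample at a time gave 4 to 6, 5 to 7, 0 to 5, 2 to 7 and 0 to 4 members, and 8 to 19, 15 to 26, 2 to 22, 11 to 25 and 1 to 18 other genes. The highest value came without wild-type normoxia 2 each time. The share of all tested genes called in each of these fits is not given here, so the counts cannot be set against it. The setting without both normoxia samples numbered 2 was chosen with the data in view. In it, members between the lines were 6 in normoxia, 8 in hypoxia and 4 in the difference, and other genes were 25, 30, 25, 31 and 25. Of all tested genes, 27.8% were then higher and 25.8% lower between the lines in normoxia, against 1.39% and 2.97% with all 12 samples. With DESeq2, 2 members passed in normoxia and 2 in the difference. Without the filter, 2 members passed in the difference, and 9, 5 and 2 other genes in wild-type hypoxia, in normoxia and in the difference. With at least 10 counts in every sample, 3 members passed in wild-type hypoxia and 0 in normoxia. At 2-fold, 1 member passed between the lines in hypoxia, and 5, 7, 1, 4 and 2 other genes in the 5 comparisons. The shares of all tested genes called with DESeq2, with the other filters and at 2-fold are not given here. In a fit of only the 6 samples, members were 0 in normoxia and 7 in hypoxia, and other genes 8, 0 and 28 in wild-type hypoxia, normoxia and hypoxia between the lines. The replicate block with only the 6 samples gave 2, 0 and 7 members and 5, 0 and 31 other genes in the same 3 comparisons. As a pairing it has backing from the data in normoxia alone, where the correlations of samples 1 and 3 depend on the samples numbered 2. The replicate block over 12 samples moved no count by more than 1.5 times. The cause of these changes was not tested, apart from the fewer samples of the smaller fits.

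Total counts in place of TMM moved the median of all genes from -0.07 to -0.30, -0.01 to -0.41, -0.03 to -0.07, -0.01 to -0.23 and 0.03 to -0.15 in the 5 comparisons, and the share of calls that were higher from 49.8% to 28.2%, 50.5% to 25.6%, 31.9% to 31.7%, 53.5% to 17.1% and 65.9% to 16.3%. Members called between the lines in hypoxia were then 5, and other genes in normoxia 4.

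Directions turned only for values that were small and without a call in the TMM fit of all 12 samples. Slc4a2 in wild-type hypoxia turned to -0.20 with total counts, to -0.0026 and, with the replicate block, -0.0013 in the 6 samples, and ranged from -0.040 to 0.092 with a sample left out. In ΔN-VEGF hypoxia it turned to -0.39 with total counts, which passed, to -0.078 without the filter, to -0.0069 and, with the block, -0.0071 in the 6 samples, to -0.011 without both normoxia samples numbered 2, and ranged from -0.015 to 0.054 with a sample left out. Its difference of responses turned to 0.0055 with DESeq2 and to 0.019 with RLE size factors or with at least 10 counts in every sample, and ranged from -0.082 to 0.054 with a sample left out. That of Slc4a7 turned to -0.12 with total counts, to -0.041 without the filter, and ranged from -0.059 to 0.12 with a sample left out. Between the lines in normoxia Car9 turned to -0.14 without both samples numbered 2 and ranged from -0.29 to 0.46 with a sample left out, and Car13 from -0.0088 to 0.32.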
